A study of Mus musculus with 4 samples.

Results

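The genes described here encode the tubulins, the kinesins and the cytoplasmic dyneins. They were chosen by symbol: alpha-, beta- and gamma-tubulins (Tuba, Tubb or Tubg followed by a digit), kinesins (Kif followed by a digit), kinesin light chains (Klc1 to Klc4) and dynein chains (symbols that begin with Dync or Dynl). The rule used no measured value and took 78 of the 23847 entries in the expression table, with 76 different symbols. Of these, 18 were tubulins, 42 were kinesins and 18 were dynein chains, with 1 tubulin and 1 kinesin pseudogene among them.

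Ventricle RNA was sequenced from C57BL/6 male mice aged 21 days. The Cdk8Tg mice (n = 2 libraries) carried a transgene that overexpresses Cdk8, the kinase of the Mediator complex, specifically in the heart, and the others were wild type (WT, n = 2 libraries). Neither the promoter of the transgene nor the number of mice per library was given in the sources used here. The spread that the p-values rest on is therefore that between libraries, which could be technical in origin.

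Microtubules are hollow polymers of alpha- and beta-tubulin dimers, and gamma-tubulin starts their growth. Each tubulin is encoded by several genes, whose products are called isotypes. Most kinesins carry cargo toward the plus end of a microtubule, kinesins of mitosis act on the spindle, and cytoplasmic dynein carries cargo toward the minus end. In cardiac muscle cells microtubules form a cage around the nucleus and run between the myofibrils, where they bear load and carry mRNA and organelles.

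Values are FPKM (fragments scaled for transcript length and for the size of the library), and all 4 are given in the order Cdk8Tg replicate 1, Cdk8Tg replicate 2, WT replicate 1, WT replicate 2. A log2 change is Cdk8Tg minus WT on log2(FPKM + 1), with its standard error, and understates the change of genes with low FPKM. "Rose" and "fell" are used for a Benjamini-Hochberg adjusted p under 0.05 in limma, fitted over the 11888 entries with a mean FPKM of at least 1.

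Cdk8 itself matched the labels, at 7309 and 8122 FPKM under the transgene and 7.89 and 9.86 FPKM in WT. The library columns summed to between 440324 and 510844 FPKM, with both Cdk8Tg sums below both WT sums, and the depth read from the steps between low values was 11.5 to 13.4 M (mega) fragments. Of 6 cardiac muscle markers 5 fell (summed FPKM 23545, 21296, 34935 and 32944) and of 6 fibroblast markers 5 rose (794, 986, 637 and 622). In whole ventricle, fewer cells of a type and less RNA per cell cannot be told apart, and the part that these markers and sums have in the results below was not tested. The median log2 change of all tested entries was 0.13. Scaling the libraries by median-of-ratios factors took that median to 0.00 and left 946 rises and 1385 falls, in place of 2009 and 949.

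Of the 78 entries, 49 passed the filter on low values, 14 rose and 2 fell. That is 32.7% called, against 24.9% of all tested entries in either direction (16.9% rose and 7.98% fell). Among the 13 tested tubulins 2 rose and 2 fell, among 20 tested kinesins 6 rose and 0 fell, and among 16 tested dynein chains 6 rose and 0 fell. The median log2 changes were 0.30, 0.29 and 0.21 for the 3 classes, beside 0.13 for all tested entries. At an unadjusted p under 0.05 in limma, 9 kinesins and 8 dynein chains lay higher, beside 29.4% of all tested entries, and 0 of either class lay lower, beside 12.3%. By the same measure 4 tubulins lay higher and 2 lower. The 9 kinesins include Kif20a and Kif26b, which passed the filter on low values only through the Cdk8Tg libraries. The groups did not overlap for 38 of the 49, with Cdk8Tg above WT for 34 and below it for 4, against 70.3% of all tested entries (49.2% above and 21.1% below). Among the 34 are Kif20a, Kif26b, Tubg2 and Dync2h1, with WT means of 0.864, 0.594, 0.890 and 0.948 FPKM. Like the first 2, Tubg2 and Dync2h1 passed the filter only through the Cdk8Tg libraries, so their Cdk8Tg means had to be higher. They also count in the class medians. The called shares of 30.8%, 30% and 37.5% are thus not far from the 24.9% called in either direction. All calls of kinesins and dynein chains were rises, so their shares also stand beside the 16.9% that rose, and lie above it. That difference was not tested, and what follows turns on which genes moved.

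Tubulin genes of different isotypes moved in opposite directions. The alpha-tubulins Tuba4a and Tuba8, both abundant in striated muscle, fell, and the beta-tubulins Tubb2a and Tubb2b rose, while the widely expressed Tuba1 genes did not pass the test. The regions upstream of the start sites of 3 of the 4 genes are shown because these genes moved in opposite directions. They are from RefSeq (build GRCm38.p6), hold no base of an exon annotated by GENCODE, and are written 5′ to 3′ on the gene's strand. Capitals mark 4 motifs searched on both strands. The TATA box was searched as TATAAA, the CCAAT box by its name, the GC box as GGGCGG and the cAMP response element as TGACGTCA. The Tuba4a stretch is chr1:75219295-75219425 (minus strand). It lies before the RefSeq start of Tuba4a but within the gene's GENCODE span, because 1 GENCODE transcript starts further upstream and the stretch is in its intron. The stretch of Tuba8 is chr6:121210484-121210695 (plus strand) and that of Tubb2a is chr13:34078009-34078258 (minus strand).
Tuba4a: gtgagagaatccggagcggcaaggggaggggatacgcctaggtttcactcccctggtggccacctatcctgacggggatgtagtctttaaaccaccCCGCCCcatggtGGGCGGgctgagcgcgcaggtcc
Tuba8: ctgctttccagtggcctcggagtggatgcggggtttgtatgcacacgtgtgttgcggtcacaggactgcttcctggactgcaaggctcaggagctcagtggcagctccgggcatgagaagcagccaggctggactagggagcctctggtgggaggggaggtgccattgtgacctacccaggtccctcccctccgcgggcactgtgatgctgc
Tubb2a: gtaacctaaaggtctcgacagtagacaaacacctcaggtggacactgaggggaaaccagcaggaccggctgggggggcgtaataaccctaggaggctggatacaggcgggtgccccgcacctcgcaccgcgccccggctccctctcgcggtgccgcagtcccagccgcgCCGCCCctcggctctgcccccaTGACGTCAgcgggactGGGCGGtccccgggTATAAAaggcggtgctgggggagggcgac

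The Tubb2a stretch held a TATA box, 2 GC boxes and a cAMP response element, the Tuba4a stretch held 2 GC boxes, and none of the 4 motifs was in the Tuba8 stretch. Over the 250 bases before the start, TATAAA was in 12.4% of 32851 RefSeq mouse promoters, CCAAT in 33.8%, GGGCGG in 32.7% and TGACGTCA in 1.55%. Of the 59 genes of these families with an entry, 5, 26, 38 and 4 held them in any of their promoters, in the same order. Of the 12 called genes with an entry, 1, 5, 11 and 2 did. The percentages count promoters and these numbers count genes, which can have several promoters, so they cannot be compared. The motifs were chosen after the sequences were seen, and a match is a run of letters, not a site of binding. The called genes Tubb2b, Kif5b, Dync1li2 and Dync2li1 had no entry.

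Tuba4a was the most abundant gene of all 78 entries, at 287, 235, 477 and 424 FPKM. Both Cdk8Tg libraries lay below both WT libraries. The log2 change was -0.79 ± 0.13 (SE; limma, adjusted p = 0.0152). The call was lost without WT replicate 1 or WT replicate 2 (limma, adjusted p = 0.0911 and 0.0824). Tuba4a lies on chromosome 1 (75214228 to 75219865, GRCm38), and its exons overlap those of Stk16, a kinase gene on the opposite strand, whose values were 15.3, 14.0, 10.2 and 10.1 FPKM. Stk16 thus read higher in Cdk8Tg, opposite to Tuba4a. Whether the authors' counting used strand was not given in the sources used here. The 6 cardiac muscle markers had a median log2 change of -0.59, of the same direction as Tuba4a, and their part in its fall was not tested.

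Tuba8 read 44.2, 40.9, 129 and 99.1 FPKM. This was the tubulin with the largest fall, with both Cdk8Tg libraries under the lower WT library. Its log2 change was -1.39 ± 0.14 (limma, adjusted p = 0.00594). Of the 16 called genes, Tuba8 was the only one called under all 14 alternatives, with a highest adjusted p of 0.0404 (limma without a filter on low values). It lies on chromosome 6 (121210696 to 121226854) and shares 1.93% of its 31-base stretches with another gene, and Tuba4a shares 3.01%, so most of the sequence of both is their own.

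Tubb2a and Tubb2b are neighbours on chromosome 13 (34074274 to 34078007 and 34126748 to 34130466) and encode near-identical class II beta-tubulins, which are prominent in neurons and in developing tissue. Tubb2a read 78.3, 123, 34.5 and 31.8 FPKM, a log2 change of 1.54 ± 0.21 (limma, adjusted p = 0.0107). Tubb2b read 27.4, 40.9, 13.6 and 11.5 FPKM, a log2 change of 1.35 ± 0.20 (limma, adjusted p = 0.0124). For both genes the Cdk8Tg libraries were above WT and Cdk8Tg replicate 2 was the higher. Both calls were lost without WT replicate 1 (limma, adjusted p = 0.0558 and 0.0524) or WT replicate 2 (0.0765 and 0.0824). The genes share 51.1% of the 31-base stretches of Tubb2a, so the division of reads between them is uncertain, and their sum (106, 164, 48.2 and 43.3 FPKM) is the safer value. Within each library Tubb2a was 2.86, 3.01, 2.53 and 2.77 times Tubb2b, so the ratio moved less than either gene. The 6 fibroblast markers had a median log2 change of 0.57, of the same direction, and their part was not tested. Markers of neurons and glia, where class II tubulin is abundant, summed to 13.5, 19.3, 15.7 and 14.6 FPKM with overlapping groups, and their part was not tested. Most of that sum was Uchl1 (8.79, 14.4, 8.88 and 7.53 FPKM, log2 change 0.42, not called). Of the 11 genes 3 were tested and 1, Dbh, fell (0.462, 0.147, 1.93 and 2.80 FPKM), while the neuronal Snap25 and Syt1 were listed at 0 in all libraries. Dbh passed the filter on low values only through the WT libraries, so it had to differ to be tested.

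The widely expressed alpha-tubulins Tuba1a, Tuba1b and Tuba1c, a cluster on chromosome 15, did not pass the test as deposited. Tuba1b was the most abundant of them at 151, 195, 148 and 128 FPKM, with a log2 change of 0.32 ± 0.15 (limma, adjusted p = 0.17). Tuba1c and Tuba1a had log2 changes of 0.42 and 0.27 (limma, adjusted p = 0.137 and 0.18). In the values as deposited both Cdk8Tg libraries were, for all 3 genes, above both WT libraries, by a narrow gap for each. All 3 were called as rises without Cdk8Tg replicate 1 (limma, adjusted p = 0.0373, 0.0439 and 0.0487 for Tuba1a, Tuba1b and Tuba1c) and at equal FPKM sums (0.0414, 0.0434 and 0.042). Each shares most of its sequence with other genes (77.0%, 75.4% and 63.9% of 31-base stretches for Tuba1a, Tuba1b and Tuba1c), so the division among them is uncertain. The same reads may also have been counted more than once. The authors' deposited table gives them lower levels, at 57.0, 50.4 and 26.1 FPKM in WT and 59.9, 73.3 and 35.1 FPKM in Cdk8Tg, with Tuba1b called.

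Tubb4b was the most abundant beta-tubulin, at 169, 183, 142 and 113 FPKM. The groups did not overlap, and the log2 change of 0.47 ± 0.13 stood just above the threshold (limma, adjusted p = 0.0515). It passed in limma with quantile normalization (adjusted p = 0.0442), with robust empirical Bayes (0.0431), with a filter at 5 FPKM (0.045) and at equal FPKM sums (0.0145). It did not pass with median-of-ratios scaling (log2 change 0.32; limma, adjusted p = 0.125), without a filter (0.118), with the replicate block (0.0568), at either other pseudocount or without any 1 library, where the adjusted p ran from 0.0676 to 0.223, nor in the authors' deposited table (q = 0.285). Tubb4b shares 64.6% of its 31-base stretches with another gene, chiefly a pseudogene, and reads of the pair cannot be told apart there. Tubb5, a widely expressed beta-tubulin, read 53.9, 62.5, 61.3 and 49.9 FPKM, and Tubb6 and Tubb4a overlapped between the groups as well. Gamma-tubulin showed no call: Tubg1 read 12.7, 13.6, 13.4 and 11.9 FPKM (log2 change 0.06, and -0.078 with median-of-ratios scaling), and the less abundant Tubg2 1.61, 1.28, 0.901 and 0.878 FPKM (0.37; limma, adjusted p = 0.111). Tubg2 passed the filter on low values only through the Cdk8Tg libraries (WT mean 0.890 FPKM). The other 5 tubulin entries (Tuba3a, Tuba3b, Tubb1, Tubb3 and the pseudogene Tubb2a-ps2) stayed under 0.801 FPKM in every library.

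**Figure D1:**
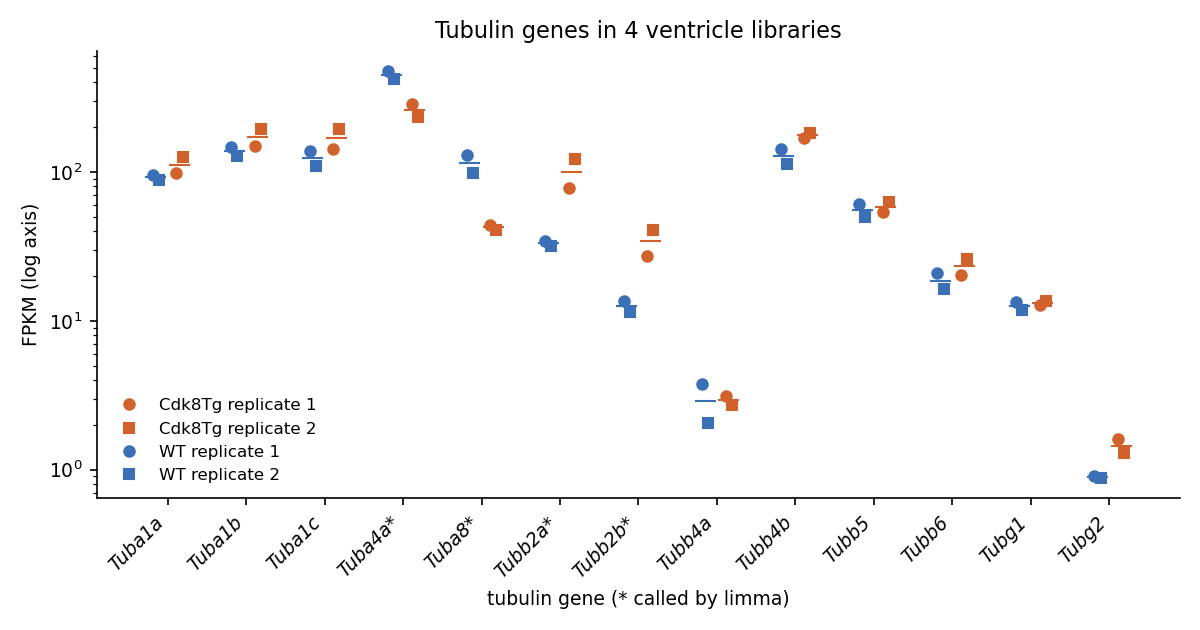
FPKM of the tubulin genes in the 4 libraries on a log axis; points are libraries, coloured by group. Tuba4a and Tuba8 lie lower in Cdk8Tg, Tubb2a and Tubb2b lie higher, and Tubb5 and Tubg1 overlap.

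The share of each isotype within its family does not depend on a single scaling factor per library, though quantile normalization, which moves genes by different amounts, can change it. Tuba4a made up 39.7% and 29.7% of all alpha-tubulin FPKM in Cdk8Tg and 48.2% and 49.9% in WT, a difference of -14.4 percentage points. Tuba8 made up 6.10% and 5.17% against 13.1% and 11.6%. Tuba1a, Tuba1b and Tuba1c each held a larger share in both Cdk8Tg libraries, with Tuba1b at 20.8% and 24.7% against 14.9% and 15.1%. The share of the 2 muscle isotypes was thus smaller in both Cdk8Tg libraries, and the groups did not overlap for any of these 5 genes. Within a family a smaller share of some isotypes raises the shares of the others, so these are not 5 separate results. The Tuba1 genes share most of their sequence, so the sum that the shares rest on may hold the same reads more than once.

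Among the beta-tubulins Tubb2a made up 22.2% and 28.0% in Cdk8Tg against 12.5% and 14.1% in WT, and Tubb2b 7.76% and 9.30% against 4.92% and 5.11%. Tubb5 held 15.3% and 14.2% against 22.1% and 22.2%, and Tubb4b 47.9% and 41.7% against 51.4% and 50.2%. In FPKM Tubb5 overlapped between the groups and Tubb4b was higher in both Cdk8Tg libraries, so a lower share is not a lower level here. Groups of 2 against 2 cannot give an exact permutation p (two-sided) below 0.333, and each of these shares gave that value. From the authors' deposited table the shares were 67.2% in WT and 57.8% in Cdk8Tg for Tuba4a, 17.0% and 9.42% for Tuba8 and 12.8% and 24.4% for Tubb2a. The differences had the same direction there, at other levels for the alpha-tubulins.

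**Figure D2:**
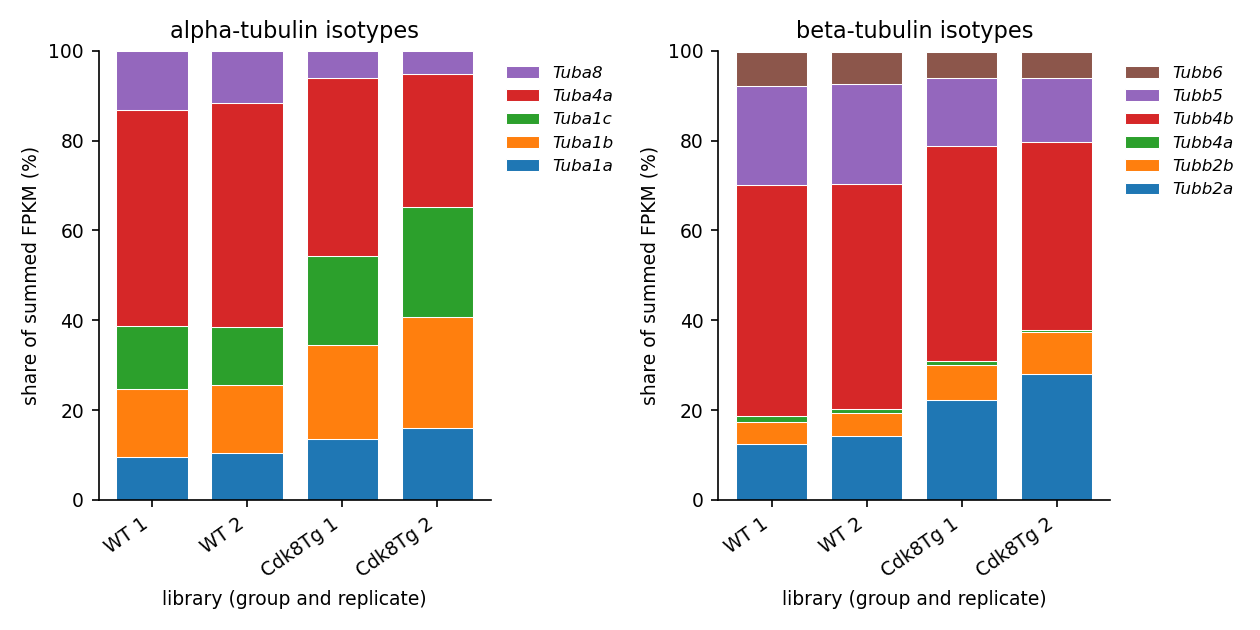
Share of each isotype in the summed FPKM of alpha-tubulins and of beta-tubulins (percent), with 1 stacked bar per library. The Tuba4a and Tuba8 segments are smaller and the Tubb2a segment larger in both Cdk8Tg bars.

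The balance of the families differed as well. Summed alpha-tubulin was 724, 791, 989 and 851 FPKM and summed beta-tubulin 353, 440, 277 and 225 FPKM. Because the Tuba1 genes share most of their sequence, the alpha-tubulin sum may hold the same reads more than once, which bears on the ratios below. Alpha-tubulin was lower and beta-tubulin higher in both Cdk8Tg libraries, and the ratio of alpha to beta was 2.05 and 1.80 in Cdk8Tg against 3.57 and 3.78 in WT (exact permutation p = 0.333, the smallest possible). The ratio of Tuba4a to the sum of the 3 Tuba1 genes was 0.731 and 0.456 against 1.25 and 1.30. From the authors' deposited table the ratio of alpha to beta was 2.70 in WT and 1.18 in Cdk8Tg, and that of Tuba4a to the Tuba1 sum 4.28 and 1.77, lower in Cdk8Tg as well.

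Kinesin-1 carries vesicles and mitochondria and is built of heavy chains, which hold the motor, and light chains. Kif5b, its ubiquitous heavy chain, read 52.3, 62.9, 35.4 and 35.7 FPKM, with a log2 change of 0.68 ± 0.11 (limma, adjusted p = 0.0149). The WT libraries were nearly identical and both Cdk8Tg libraries lay well above them, though without WT replicate 1 or WT replicate 2 the call was lost (limma, adjusted p = 0.0782 and 0.0918). Klc1, a light chain that binds cargo, read 64.8, 67.2, 48.4 and 45.4 FPKM and rose by 0.48 ± 0.08 (limma, adjusted p = 0.0158). Klc1 was not called in the authors' deposited table (q = 0.251). Its exons overlap Xrcc3 on the opposite strand, which read 3.33, 2.55, 2.37 and 2.21 FPKM, far below Klc1. The light chains Klc2 (log2 change 0.08) and Klc4 (0.13) did not pass the test. Kif5a and Kif5c, the neuronal heavy chains, stayed below 1 FPKM and were not tested, though each was higher in both Cdk8Tg libraries (Kif5c 0.876, 0.848, 0.276 and 0.118 FPKM).

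Kinesin-2 carries cargo along cilia and in the cytoplasm as a pair of different motors with an adaptor. Kif3a read 7.79, 8.54, 4.11 and 4.11 FPKM, a log2 change of 0.84 ± 0.10 (limma, adjusted p = 0.00721), and its partner Kif3b read 5.96, 6.95, 3.96 and 4.25 FPKM, a log2 change of 0.54 ± 0.11 (limma, adjusted p = 0.0251). Both motors were higher in both Cdk8Tg libraries, and Kif3a by more: their ratio was 1.31 and 1.23 in Cdk8Tg against 1.04 and 0.966 in WT. Kif3a kept its call under 13 of 14 alternatives and Kif3b under 8. Kif3b lost it with quantile normalization (limma, adjusted p = 0.0567), without a filter on low values (0.0712) and in the authors' deposited table (q = 0.0835). It was also lost when Cdk8Tg replicate 2 or either WT library was left out. Kif3c, the alternative partner, had a log2 change of 0.13.

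The kinesin-3 family moves vesicles and mitochondria. Kif1c was its most abundant member and the most abundant kinesin motor, at 76.9, 74.6, 76.9 and 83.6 FPKM, with a log2 change of -0.08 that turned to 0.11 at equal FPKM sums. Kif1b read 43.4, 44.6, 34.8 and 35.8 FPKM and rose by 0.31 ± 0.08 (limma, adjusted p = 0.0396). It is a small change, and with median-of-ratios scaling its log2 change was 0.16 (limma, adjusted p = 0.189). Kif13a, Kif13b and Kif16b had log2 changes between -0.06 and 0.16 and no call.

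Of the kinesins of microtubule ends, cilia and signalling, Kif26b rose. Its values were 1.41, 1.65, 0.635 and 0.553 FPKM, with a log2 change of 0.66 ± 0.14 (limma, adjusted p = 0.0274). It passed the filter on low values only through the Cdk8Tg libraries, so it had to differ to be tested. Kif2a and Kif21a, which shorten microtubule ends and curb their growth, had log2 changes of 0.34 and 0.32 (limma, adjusted p = 0.0556 and 0.0984). Kif6 was under the limit, at 0.447, 0.392, 0.998 and 1.29 FPKM.

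The mitotic kinesins were at most 2.25 FPKM in any library. The 4 that could be tested (Kif11, Kif20a, Kif22 and Kif23) had log2 changes of 0.26 to 0.65 and 0 calls in limma. The nearest was Kif20a (adjusted p = 0.0632), the only 1 of the 4 with an unadjusted p under 0.05. Like Kif26b, it passed the filter on low values only through the Cdk8Tg libraries (WT mean 0.864 FPKM). Their summed FPKM over all 12 entries was 9.46, 12.6, 9.10 and 5.44. Cdk8Tg replicate 2 was highest and WT replicate 2 lowest, as was the sum of the proliferation markers (29.4, 41.6, 34.8 and 19.2 FPKM), of which 0 rose and 1, Cenpf, fell among 13 tested.

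**Figure D3:**
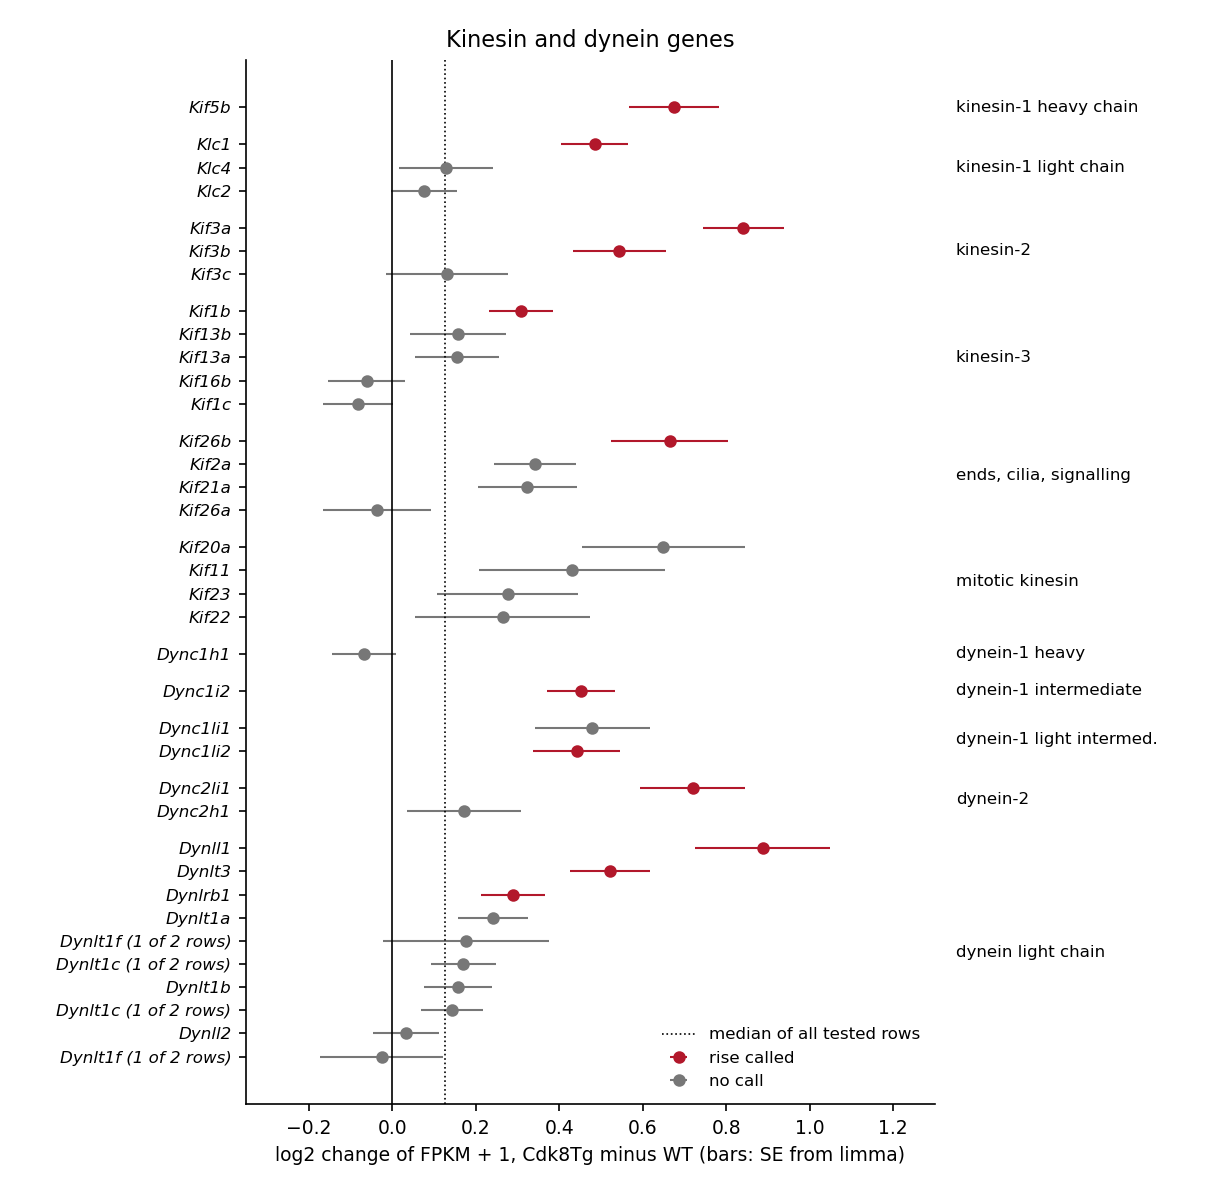
Log2 change (Cdk8Tg minus WT) of the tested kinesins and dynein chains with the SE from limma; red points passed the test, and the dotted line is the median of all tested entries. The red points all lie above 0, and Dync1h1, Kif1c and Dynll2 lie near 0.

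Cytoplasmic dynein is built on a pair of identical heavy chains, which hold the motor. Their gene, Dync1h1, read 27.2, 27.6, 28.3 and 29.1 FPKM (log2 change -0.07 ± 0.08; limma, adjusted p = 0.543). The sign of this small difference changed when the libraries were scaled to equal FPKM sums. Dync1i2, the intermediate chain that binds dynactin, read 44.2, 47.5, 32.7 and 33.8 FPKM and rose by 0.45 ± 0.08 (limma, adjusted p = 0.0189). Dync1li2, a light intermediate chain that binds cargo adaptors, read 31.7, 37.5, 24.8 and 25.4 FPKM and rose by 0.44 ± 0.10 (limma, adjusted p = 0.0351). With median-of-ratios scaling both lost their call (limma, adjusted p = 0.0511 and 0.0899). Dync1li1 had a log2 change of 0.48 ± 0.14 (limma, adjusted p = 0.0563).

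The ratio of Dync1i2 to the heavy chain was 1.63 and 1.72 in Cdk8Tg against 1.15 and 1.16 in WT, which a single scaling factor per library leaves as it is. The ratio of Kif5b, the plus-end motor, to Dync1h1, the minus-end motor, was 1.92 and 2.28 against 1.25 and 1.22. Neither pair of groups overlapped (exact permutation p = 0.333 for both).

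**Figure D4:**
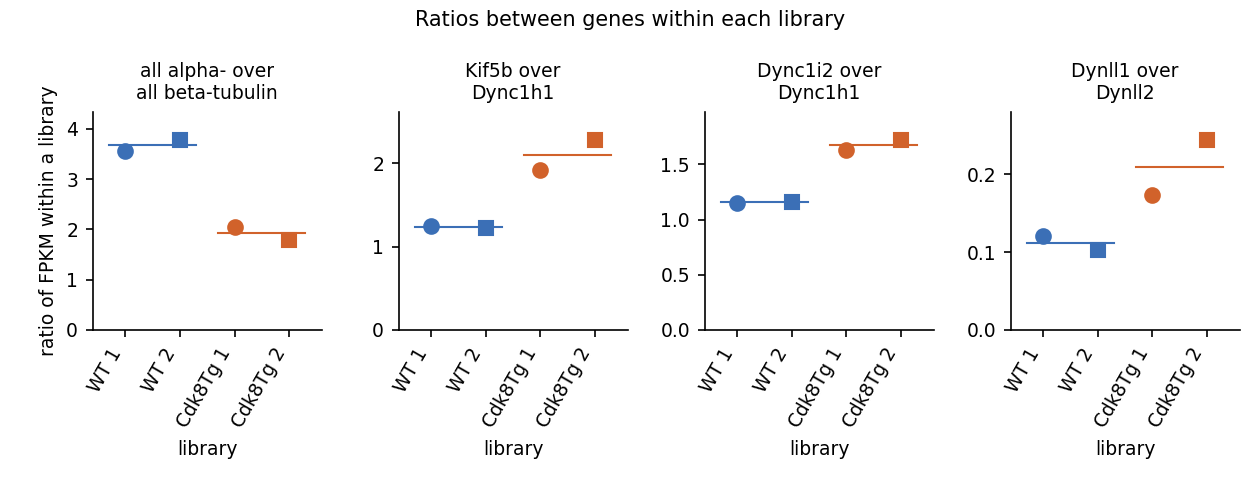
Ratios of FPKM between genes in each of the 4 libraries; points are libraries and lines are group means. The alpha to beta ratio is lower in both Cdk8Tg libraries and the ratios of Kif5b and Dync1i2 to Dync1h1 are higher.

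Dynein-2 runs in cilia. Its light intermediate chain Dync2li1 read 5.08, 5.65, 2.56 and 3.18 FPKM and rose by 0.72 ± 0.13 (limma, adjusted p = 0.0173), while its heavy chain Dync2h1 had a log2 change of 0.17 at about 1 FPKM. Dync2h1 passed the filter on low values only through the Cdk8Tg libraries (WT mean 0.948 FPKM).

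Among the light chains, Dynll1 and Dynll2 encode near-identical hub proteins that many cargoes bind. Dynll1 read 30.2, 40.5, 20.2 and 16.9 FPKM, a log2 change of 0.89 ± 0.16 (limma, adjusted p = 0.0192). Dynll2, more abundant in this tissue, read 174, 166, 167 and 165 FPKM with overlapping groups (log2 change 0.03, and -0.11 with median-of-ratios scaling). The ratio of Dynll1 to Dynll2 was 0.174 and 0.244 in Cdk8Tg against 0.120 and 0.102 in WT. Dynlt3 read 39.4, 43.9, 27.4 and 30.0 FPKM and rose by 0.52 ± 0.10 (limma, adjusted p = 0.0196). Dynlrb1 read 153, 155, 126 and 125 FPKM and rose by 0.29 ± 0.08 (limma, adjusted p = 0.0462), a call that ended with median-of-ratios scaling (0.245). The Dynlt1 genes on chromosome 17, which share 68.4% to 96.0% of their 31-base stretches, had no call in any of their 6 entries, and their sum was 205, 200, 182 and 176 FPKM. With so much shared sequence the sum may hold the same reads more than once. The authors' deposited table gives Dynlt1a 0.146 FPKM in WT and 0.535 in Cdk8Tg and Dynlt1b 3.36 and 3.43, where the library table has 41.1 to 51.5 FPKM for Dynlt1a and 55.7 to 65.3 for Dynlt1b, so the level of these genes is uncertain.

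The upstream stretches of Klc1 and Dynll1 are shown beside the tubulins because Klc1 is, with Tubb2a, the other called gene with a cAMP response element, and Dynll1 holds 2 CCAAT boxes. They are chr12:111758618-111758848 (plus strand) and chr5:115301000-115301119 (minus strand).
Klc1: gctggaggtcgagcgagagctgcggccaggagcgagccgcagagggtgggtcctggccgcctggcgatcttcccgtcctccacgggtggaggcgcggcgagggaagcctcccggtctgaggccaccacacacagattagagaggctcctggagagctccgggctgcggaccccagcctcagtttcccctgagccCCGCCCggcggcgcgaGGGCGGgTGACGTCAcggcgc
Dynll1: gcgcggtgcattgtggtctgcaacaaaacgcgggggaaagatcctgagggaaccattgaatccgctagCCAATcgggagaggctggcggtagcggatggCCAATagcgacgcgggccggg

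The genes around the motors and tubulins moved in both directions. In lists drawn up with earlier results known, of 16 tested enzymes that modify tubulin 6 rose and 2 fell (50% called, against 24.9%). Hdac6, which removes acetyl groups from tubulin, read 10.4, 12.7, 4.12 and 4.57 FPKM (log2 change 1.23; limma, adjusted p = 0.00576). Agtpbp1, which trims glutamate chains, read 11.2, 11.8, 32.1 and 48.5 FPKM (-1.70; limma, adjusted p = 0.00712), and Ttll1, which adds them, read 14.4, 12.4, 30.5 and 33.2 FPKM (-1.19; limma, adjusted p = 0.00454). Enzymes of opposite action thus both fell, and Atat1, which adds the acetyl group that Hdac6 removes, rose as well (0.48; limma, adjusted p = 0.0479).

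Of 37 tested microtubule-associated and plus-end genes 7 rose and 3 fell (27% called, against 24.9% of all tested entries). Map1a read 3.90, 6.60, 0.872 and 0.813 FPKM (log2 change 1.73) and, like Kif26b, passed the filter on low values only through the Cdk8Tg libraries. Tppp, which bundles microtubules, fell (-0.95). Of 21 tested folding genes 4 rose and 1 fell (23.8% called), the rises including Tbcel (0.83) and the fall being Arl2 (-0.59). Of 22 dynactin subunits and dynein adaptors 5 rose, among them Dctn3 (0.36), and 1, Rilp, fell (-0.37), so 27.3% were called. Of 17 kinesin partners 6 rose, among them Fez2 (59.9, 67.5, 34.5 and 28.4 FPKM), and 1, Plekhm2, fell (-1.24), so 41.2% were called. Of 23 nucleation genes 5 rose and 2, Pde4dip (-0.76) and Pcnt (-0.80), fell (30.4% called). Of 17 ciliary genes 6 rose, among them Wdr35 (0.74), and 1, Ift81, fell (-0.92), again 41.2%. The 6 include Wdr19, which passed the filter on low values only through the Cdk8Tg libraries (WT mean 0.783 FPKM). Of 6 severing genes 1, Katnal1, rose (16.7%). The list medians lay between 0.03 and 0.35, beside 0.13 for all tested entries.

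**Figure D5:**
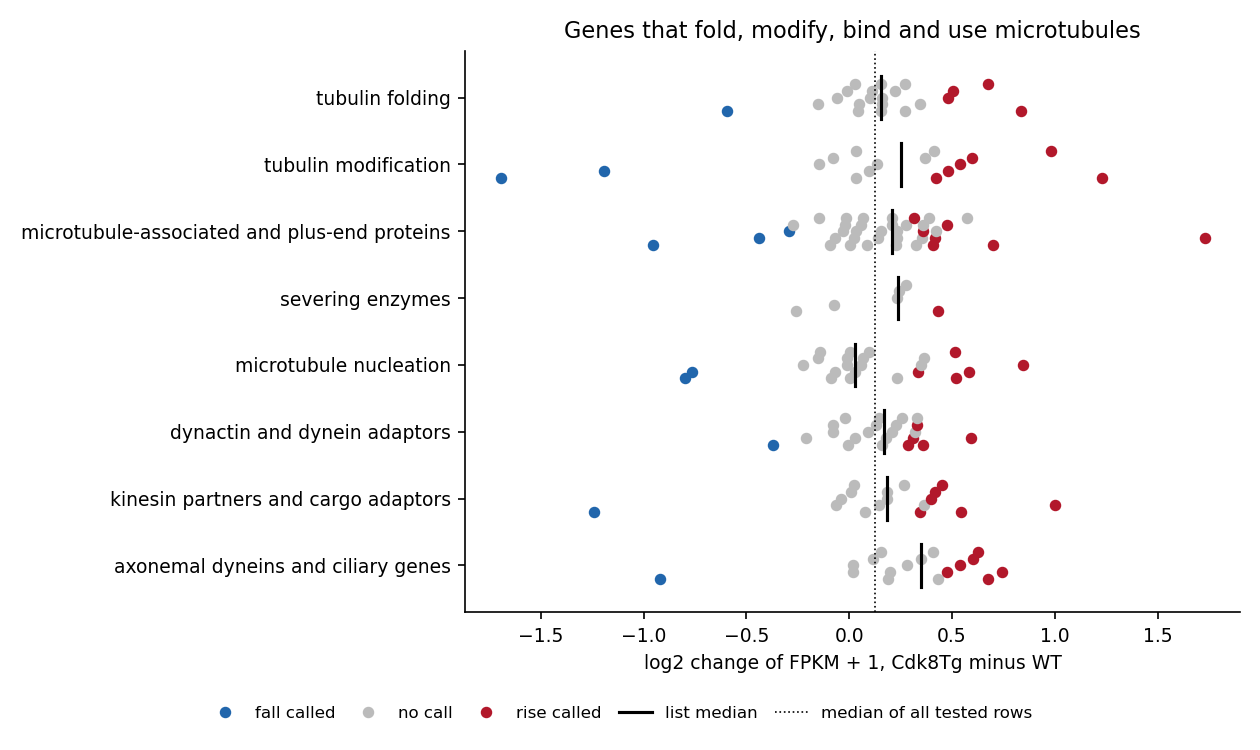
Log2 change of every tested gene in each list of microtubule genes, with the list median. Medians lie between 0.03 and 0.35 and each list except severing holds both rises and falls.

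The number of calls depended on the scaling and on single libraries. With median-of-ratios scaling 2 tubulins rose and 2 fell, 5 kinesins rose and 3 dynein chains rose, beside 19.6% of all tested entries in either direction. At equal FPKM sums 7 tubulins rose and 2 fell and 11 kinesins and 11 dynein chains rose, beside 46.7%. Over all 11888 tested entries 946 rose with median-of-ratios scaling and 4899 at equal FPKM sums. Quantile normalization called 5, 3 and 5 of the 3 classes, beside 17.1%, and the fit without a filter on low values called 1, 4 and 1, beside 5.88%.

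Of the 16 called genes, 14 passed when Cdk8Tg replicate 1 was left out (20.0% of all tested entries called), 7 when Cdk8Tg replicate 2 was (11.0%), 2 when WT replicate 1 was (5.28%) and 1 when WT replicate 2 was (2.41%). Without Cdk8Tg replicate 1 the calls of Kif1b and Dynlrb1 were lost, and the 3 Tuba1 genes and Dync1li1 gained one. Without Cdk8Tg replicate 2 those of Tuba4a, Tuba8, Tubb2a, Tubb2b, Kif3a, Kif5b and Dynll1 held. Tuba8 and Kif3a held without WT replicate 1, and Tuba8 held without WT replicate 2. In these fits the lone library of a group is taken to be as variable as the other group. Pseudocounts of 0.1 and 5, with 25.0% and 24.1% of all tested entries called, kept 16 of the 16, and a replicate block kept 14, beside 23.8%. In the authors' deposited table, which called 14.0% of its tested entries at q under 0.05, 8 of the 16 were called. Dync1i2, Dync1li2, Dync2li1, Dynlrb1, Dynlt3, Kif1b, Kif3b and Klc1 were not (q from 0.0835 to 0.72). That table also called Tuba1b. Kif5c (0.249 and 0.982 FPKM in WT and Cdk8Tg) rose and Kif6 (1.46 and 0.478 FPKM) fell in the authors' deposited table.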

How the data were processed

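Per the labels' protocols, RNA of frozen ventricles was taken with Trizol and enriched for polyadenylated molecules, and strand-marking TruSeq libraries were prepared. TopHat (1.0.0) alignment to mm10, Cufflinks and Cuffdiff are named in the submitters' processing notes. The annotation and the strand setting were not given in the sources used here. The authors deposited FPKM per library in 23847 rows, and the authors' deposited table of the comparison holds an FPKM per group with p-values and q-values.

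Because FPKM values are not counts, log2(FPKM + 1) was fitted with limma 3.58.1 (R 4.3.3), using trended empirical Bayes, 2 residual degrees of freedom and no covariates. The 11888 rows whose mean reached 1 FPKM were tested, with Benjamini-Hochberg adjustment over all of them. Ratios and shares were tested by exact permutation. Members, lists and tests were chosen with earlier results of these data known. The rule for named genes took called members and the most abundant member of each role, and up to 4 called genes per list by smallest p; other members named were chosen after their values were seen. Shared 31-base stretches, overlaps and coordinates are from GENCODE M21 (GRCm38), and promoters from RefSeq. Depth was read from steps between FPKM values under 0.1 in 322 to 346 genes per library, and is a depth only if each library was scaled by its own total. A transcript of 2 kb at 1 FPKM then holds 22.9 to 26.8 fragments. The fit was tested on simulated data with the same spread for all genes. Apart from genes without a change, no change under 1 log2 unit was simulated, and most called members changed by less than that. Alternatives changed the pseudocount, filter, scaling, variance model, replicate block and libraries used.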

Additional observations from a re-analysis of the deposited data

How the results depend on the processing

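Tuba8 fell under every one of the 14 alternatives. Without a filter on low values, 1055 genes were called in all, with 1 tubulin and 1 dynein chain. Scaling each library to the same FPKM sum called 5552 genes, 9 tubulins, 11 kinesins and 11 dynein chains. Median-of-ratios scaling left 3 dynein chains and quantile normalization 3 kinesins. The authors' deposited table called 1730 genes and 1 dynein chain. Leaving out 1 library gave 287 to 2380 genes in all, 1 to 7 tubulins, 0 to 5 kinesins and 0 to 6 dynein chains. Of the 16 called members, 16 kept the call at pseudocounts of 0.1 and 5 and 5 without the filter. The log2 change of Dynll2 was -0.11 with median-of-ratios scaling and -0.12 in the authors' deposited table, and ran from -0.000744 to 0.0675 when 1 library was left out. That of Tubg1 was -0.078 with median-of-ratios scaling, -0.0644 with quantile normalization and -0.0768 in the authors' deposited table, and ran from -0.0187 to 0.138. At equal FPKM sums, Dync1h1 was 0.12 and Kif1c 0.11. None of these 4 genes was called in limma as deposited, and the cause was not tested.

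Deviations from the group mean of Cdk8Tg replicate 1 and WT replicate 1 correlated at -0.0256 over 11888 genes. With 2 libraries per group, replicate 2 gives the same value. Whether same-numbered libraries were paired cannot be told from this. With the replicate block 2825 genes were called, with 4 tubulins, 5 kinesins and 6 dynein chains. Dynlrb1 (limma, adjusted p = 0.074) and Kif1b (0.054) lost their call, and Dync1li1 (0.0227) gained one.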
